A study of Homo sapiens with 7 samples.

Results

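The late stage dasatinib resistant (DasR) lines of the K562 dose escalation series were compared with their controls, to describe the transcripts held high or low at both high doses. Of the 7 libraries in the series, 4 belong to this comparison. The late stage group is the 50 nM DasR line and the 200 nM DasR line, and the control group is the drug naive line and the line kept in DMSO vehicle. The 10, 15 and 25 nM DasR lines (early stage) entered the same fit, where they share the estimate of the spread, and served as a second point of comparison.

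K562 is an established chronic myeloid leukemia line of erythroblast type that carries the BCR::ABL1 fusion, and all 7 lines share it. Dasatinib is a tyrosine kinase inhibitor of ABL1 and the SRC family, and the DasR lines were grown in it at rising concentrations, each from the one before, so that the 200 nM line descends from the same escalation as the 50 nM line. Each line was sequenced once. The lines of a group therefore served as its replicates, the spread within the late stage group holds the effect of dose, and the tests compare these lines and not repeat cultures of them. Resistant cells can be selected from a mixed population, and in bulk RNA fewer cells with a transcript and less of it per cell cannot be told apart.

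The drug naive library held 21007761 counts, the DMSO library 24037893, the 50 nM library 20827519 and the 200 nM library 21588772. No pair was a copy of one library: chi-square divided by its degrees of freedom was 24.41 for the controls and 33.51 for the late stage lines. Of 25702 genes in the count table, 10452 had at least 10 CPM (counts divided by the TMM-scaled size of the library, so that libraries of different depth can be compared) in at least 2 libraries and were tested. CPM values are not divided by gene length, so levels are compared between lines and not between genes. Values of the control lines are given in the order drug naive, DMSO, those of the late stage in the order 50 nM, 200 nM, and those of the early stage by rising dose.

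Erythroid markers were present in all 4 lines. GATA1, the transcription factor that defines the lineage, had 210 and 218 CPM in the drug naive and DMSO lines and 239 and 295 CPM in the 50 and 200 nM lines. Genes that define other blood cells had 23 counts or fewer, given here in the same order of lines. The T cell gene CD3E had 3, 5, 23 and 3 counts and the monocyte gene CD14 had 6, 5, 19 and 7 counts. The granule gene MPO had 0, 3, 1 and 0 counts and the platelet gene PF4 had 1, 1, 0 and 0 counts. PTPRC (CD45), the phosphatase of nucleated blood cells, was at 182 and 195.5 CPM in the control lines and 310 and 334 CPM at the late stage, and at 11.4, 0.905 and 104 CPM at the early stage.

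A cell that depends on a constitutively active tyrosine kinase passes its signal through adaptors such as GAB2 and through STAT5, and growth signals of this kind raise ribosome production and protein synthesis. When unfolded proteins collect in the endoplasmic reticulum (ER), or when amino acids run short, stress kinases lead to translation of ATF4, a transcription factor that turns on amino acid synthesis, amino acid import and tRNA charging. A separate branch through ERN1 (IRE1) and ATF6 raises ER chaperones, whereas chaperones of the cytosol are under the heat shock factor HSF1. Red cell precursors such as K562 also make globins and heme.

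Against the controls, 834 of the 10452 genes (7.98%) passed edgeR's quasi-likelihood test at a false discovery rate (FDR, Benjamini-Hochberg adjusted p) of 0.005. In the late stage 357 of them were higher (3.42%) and 477 lower (4.56%). The 834 genes all had late stage and control lines that did not overlap, as did 68.5% of all genes tested (33.4% with the late stage lines higher and 35.2% lower). A gene was taken as held where it passed the test and its lower late stage line was at least 2 times its higher control line, or the reverse. There were 345 held genes (3.3%), 121 higher (1.16%) and 224 lower (2.14%), with median log2 fold changes of 1.83 and -1.82. Without the test, the same 2-fold rule took 2% of all genes as higher and 3.27% as lower. The 50 and 200 nM lines were within 2-fold of each other for 117 of the 121 and for 213 of the 224.

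These counts rest on the spread shared by 7 libraries and on each control. Without the drug naive line 30 genes passed, without the DMSO line 95, without the 25, 50 or 200 nM line 276, 301 and 292, and in a fit of the 4 control and late stage libraries alone 335. All 834 kept their direction in each of the 7 fits that left out 1 library, wherever they were tested there. Their late stage and control lines do not overlap, so leaving out 1 library could not reverse a direction. The kept direction is therefore no check on the calls.

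The largest increases were ranked among held genes with at least 10 CPM in each late stage line. The first 12 included 2 adhesion receptors, 2 regulators of the cytoskeleton and a homeobox factor. GPR126 (gene ID 57211, GRCh37 chromosome 6 from 142622991 to 142767403) and GPR125 (gene ID 166647, GRCh37 chromosome 4 from 22346694 to 22517689) encode adhesion G protein-coupled receptors. GPR126 had 0.199 and 0.376 CPM in the control lines and 57.5 and 30.2 CPM at the late stage (log2 fold change 7.19, standard error 0.82, edgeR quasi-likelihood FDR 0.00147). GPR125 had 0.199 and 0.459 CPM in the control lines and 15.6 and 18 CPM at the late stage (log2 fold change 5.61, standard error 0.30, edgeR quasi-likelihood FDR 0.000219). Both were close to absent in the controls and present in each late stage line, and the early stage lines were in the same range, with 53.3, 20.6 and 67.2 CPM of GPR126 and 19.2, 18.9 and 19.7 CPM of GPR125.

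ENAH (gene ID 55740, GRCh37 chromosome 1 from 225674467 to 225840844), an actin polymerase of the Ena/VASP family, had 6.42 and 5.43 CPM in the control lines and 155 and 155 CPM at the late stage, and had the smallest p-value of the higher genes (log2 fold change 4.71, standard error 0.17, edgeR quasi-likelihood FDR 0.000108). KANK1, which joins focal adhesions to cortical microtubules, had 0.697 and 1.21 CPM in the control lines and 44.9 and 49.7 CPM at the late stage (log2 fold change 5.60, standard error 0.53, edgeR quasi-likelihood FDR 0.000938). For both, the late stage lines lay close together and far above the controls. THBS1, a secreted matrix glycoprotein of platelet granules, had 0.945 and 1.75 CPM in the control lines and 53.6 and 17.8 CPM at the late stage, and here the late stage lines were far apart (log2 fold change 4.70, standard error 0.74, edgeR quasi-likelihood FDR 0.00444). The early stage lines had 17, 45.8 and 37.4 CPM.

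TLX1 (gene ID 3195, GRCh37 chromosome 10 from 102891057 to 102897546), a homeobox transcription factor known as an oncogene of T cell leukemia, had 1.59 and 1.002 CPM in the control lines and 23.5 and 22.9 CPM at the late stage (log2 fold change 4.17, standard error 0.22, edgeR quasi-likelihood FDR 0.000219). TBX1, a T-box transcription factor, was at 22.8 and 23.7 CPM in the control lines and 84.5 and 80.8 CPM at the late stage (log2 fold change 1.83, standard error 0.10, edgeR quasi-likelihood FDR 0.000219). AQP3, a channel for water and glycerol, was at 12.2 and 11.9 CPM in the control lines and 59.8 and 68.7 CPM at the late stage (log2 fold change 2.41, standard error 0.12, edgeR quasi-likelihood FDR 0.000219). The late stage lines were close together for these genes and above both controls. Of signaling genes, UBASH3A, a suppressor of antigen receptor signaling, had 1.79 and 1.71 CPM in the control lines and 33.5 and 47.2 CPM at the late stage (log2 fold change 4.52), and the adenylyl cyclase ADCY9 (log2 fold change 4.24) went from 1.24 and 0.543 to 22 and 11.2 CPM. The other genes of the 12 largest increases were LGALSL (a galectin-like protein), CRYBG3, GBP4 (an interferon-inducible GTPase) and KIAA1549, with log2 fold changes between 4.09 and 5.61. Among these other genes, GBP4 differed most between the late stage lines, with 227 CPM at 50 nM and 96.5 CPM at 200 nM.

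CMTM7, RBMS1, SMO and FZD3 also rose, and were under 1 CPM in both controls. CMTM7, a membrane protein of the MARVEL family, had 3 counts over both controls and 419 counts over both late stage lines, a ratio of 146 (95% interval 49.7 to 712, counting error only). SMO, the signal transducer of the Hedgehog pathway, had 0.298 and 0.167 CPM in the control lines and 10.5 and 5.38 CPM at the late stage (log2 fold change 5.09, standard error 0.53, edgeR quasi-likelihood FDR 0.00128). FZD3, a Wnt receptor, had 0.497 and 0.209 CPM in the control lines and 7.56 and 8.45 CPM at the late stage (log2 fold change 4.52, standard error 0.34, edgeR quasi-likelihood FDR 0.000551). Both were nearer to the controls than the early stage lines were, with log2 fold changes between late and early stage lines of -1.41 for SMO (edgeR quasi-likelihood FDR 0.0425) and -1.22 for FZD3 (FDR 0.0238). Of the 5 tested genes of the Hedgehog list, which does not hold EVC (given below), only SMO was called. Of the 19 tested genes of the Wnt list 2 were called, FZD3 and ZNRF3, both higher. These are 20% and 10.5% of the tested members, against 3.42% of all genes called higher. CMTM7 lies outside the rule for named genes and was chosen after its values were seen.

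**Figure D1:**
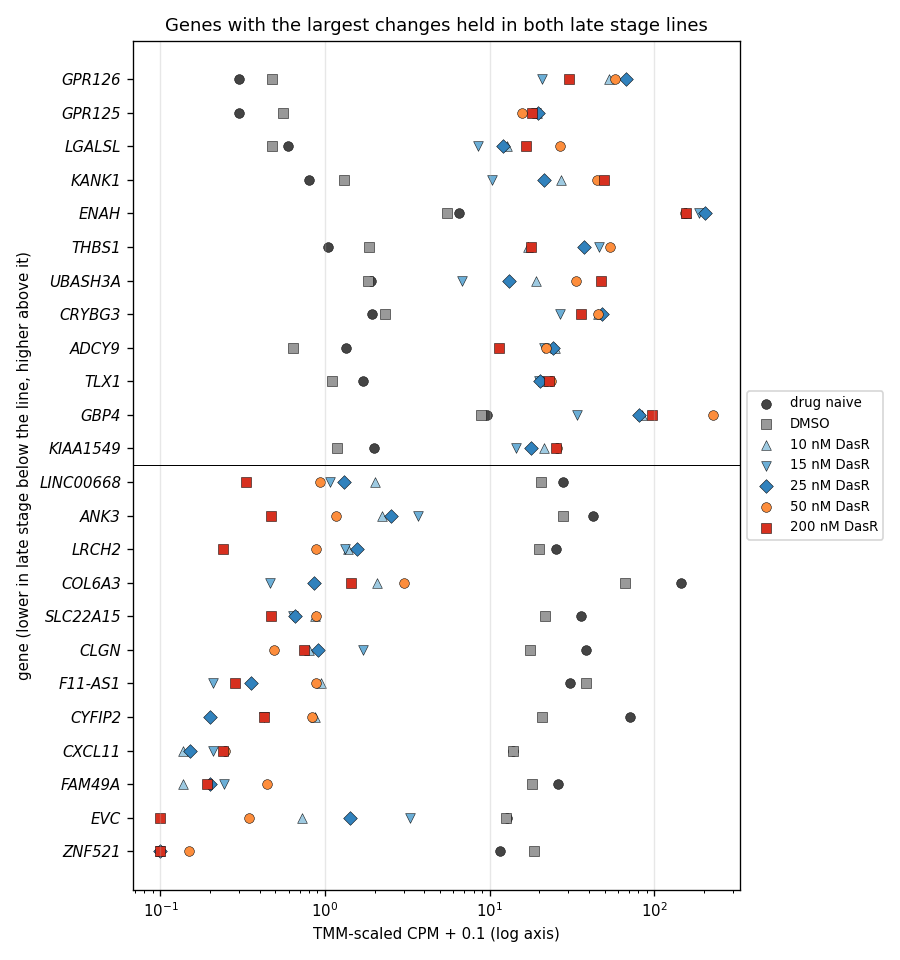
Level of the 12 genes with the largest held increases and the 12 with the largest held decreases (at least 10 CPM in each library of the higher group) in each of the 7 libraries, as TMM-scaled CPM plus 0.1 on a log axis, 1 point per library. For each gene the 50 and 200 nM DasR points lie on one side and both control points on the other, and the early stage points lie on the late stage side.

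Of the 12 largest decreases among held genes with at least 10 CPM in each control, several were genes that the late stage lines had all but lost. ZNF521 (gene ID 25925, GRCh37 chromosome 18 from 22641888 to 22932154), a zinc finger regulator of hematopoietic progenitors, had 231 and 444 counts in the drug naive and DMSO lines and 1 and 0 counts in the 50 and 200 nM lines. The ratio of the controls to the late stage lines was 644 (95% interval 115 to 25500, counting error only), with an edgeR quasi-likelihood FDR of 0.00184. CXCL11, a chemokine induced by interferon, had 278 and 330 counts in the controls and 3 and 3 counts in the late stage lines, a ratio of 96.7 (95% interval 44.2 to 265). FAM49A and CYFIP2 encode partners of RAC1, and CYFIP2 is a subunit of the WAVE complex that starts branched actin. FAM49A had 26.1 and 18.1 CPM in the control lines and 0.341 and 0.0928 CPM at the late stage (log2 fold change -6.65, standard error 0.55, edgeR quasi-likelihood FDR 0.000684). CYFIP2 had 71.5 and 20.6 CPM in the control lines and 0.732 and 0.325 CPM at the late stage (log2 fold change -6.44, standard error 0.87, edgeR quasi-likelihood FDR 0.00261), and its controls differed from each other by more than 3-fold.

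COL6A3, a chain of collagen VI, had 146 and 66.3 CPM in the control lines and 2.93 and 1.35 CPM at the late stage (log2 fold change -5.63, standard error 0.71, edgeR quasi-likelihood FDR 0.0021). ANK3, ankyrin G of the membrane skeleton, had 42.5 and 27.7 CPM in the control lines and 1.07 and 0.371 CPM at the late stage (log2 fold change -5.60, standard error 0.51, edgeR quasi-likelihood FDR 0.000887). EVC, a protein of the primary cilium that acts in Hedgehog signaling, had 12.6 and 12.4 CPM in the control lines and 0.244 and 0 CPM at the late stage (log2 fold change -6.65, standard error 1.07, edgeR quasi-likelihood FDR 0.00473). In each of the 3 genes the 200 nM line was lower than the 50 nM line, and both were below the controls. The other genes of this group were the ER chaperone CLGN, the transporter SLC22A15, LRCH2, and the non-coding F11-AS1 and LINC00668, with log2 fold changes between -6.16 and -5.50. F11-AS1 is antisense to F11, and whether the reads were counted by strand is not given in the sources used here.

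The decreases with the smallest p-values were in genes expressed well in the controls. IL20RB (gene ID 53833, GRCh37 chromosome 3 from 136665072 to 136729927), a receptor subunit for cytokines of the interleukin 20 family, had 70.1 and 68.3 CPM in the control lines and 2.05 and 1.996 CPM at the late stage (log2 fold change -5.09, standard error 0.21, edgeR quasi-likelihood FDR 0.000157). AKNA, a protein of the centrosome that organizes microtubules, had 236 and 203 CPM in the control lines and 16.1 and 19.5 CPM at the late stage (log2 fold change -3.62, standard error 0.19, edgeR quasi-likelihood FDR 0.000219). GAB2 (gene ID 9846, GRCh37 chromosome 11 from 77926339 to 78129394), the scaffold that links BCR::ABL1 to downstream kinases, had 396 and 328 CPM in the control lines and 79.7 and 82.2 CPM at the late stage (log2 fold change -2.16, standard error 0.12, edgeR quasi-likelihood FDR 0.000219). The values within a group were close for all 3. CCPG1, a receptor for autophagy of the ER, had 444 and 439.6 CPM in the control lines and 93.8 and 109 CPM at the late stage (log2 fold change -2.12, standard error 0.12, edgeR quasi-likelihood FDR 0.000219). LOC440910, for which a near-identical copy could share reads, was at 148 and 153 CPM in the control lines and 25.4 and 22.1 CPM at the late stage.

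By absolute difference in CPM among called genes, the decreases were led by HSPA5, VIM, WARS, ASNS and MAP1B, and the increases by the chaperones HSP90AA1, HSP90AB1 and HSPA8, the RNA-binding protein HNRNPA2B1 and ABL1. VIM (vimentin, an intermediate filament of mesenchymal and blood cells) had 1373 and 936 CPM in the control lines and 239 and 267 CPM at the late stage (log2 fold change -2.19, standard error 0.18, edgeR quasi-likelihood FDR 0.000668). MAP1B, a microtubule-associated protein, had 827 and 694 CPM in the control lines and 187 and 138 CPM at the late stage (log2 fold change -2.23, standard error 0.25, edgeR quasi-likelihood FDR 0.00142). HNRNPA2B1 was at 969 and 1205 CPM in the control lines and 1842 and 2240 CPM at the late stage (log2 fold change 0.91, standard error 0.15, edgeR quasi-likelihood FDR 0.00484).

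**Figure D2:**
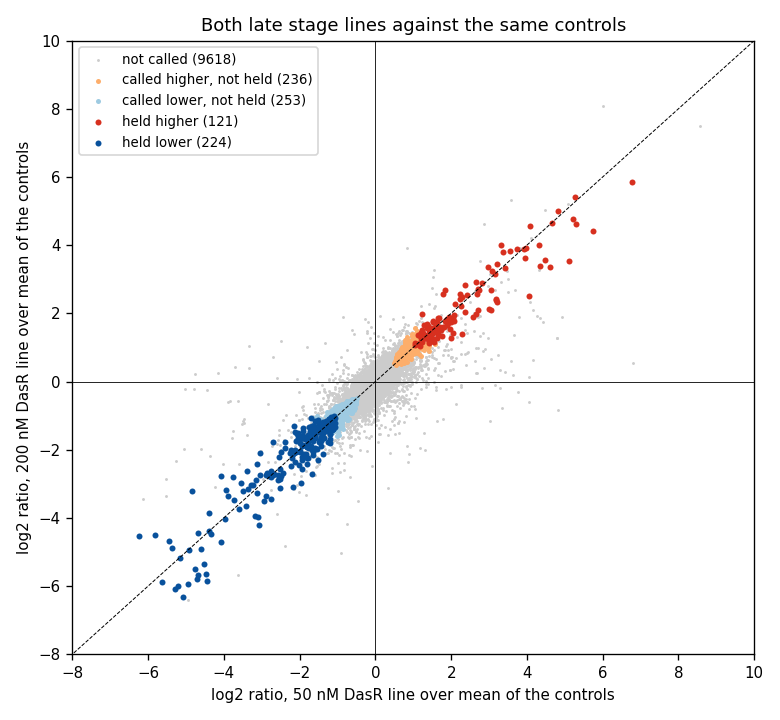
log2 ratio of each of the 10452 tested genes in the 50 nM line (x axis) and the 200 nM line (y axis) to the mean of the drug naive and DMSO lines, with held genes in dark colors and other called genes in light colors. Both axes divide by the same controls, which places points along the diagonal by itself; the 345 held genes lie at both ends.

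Genes that went opposite ways in the late stage lines were few. In 6 genes the 50 nM line was at least 2-fold above and the 200 nM line at least 2-fold below both controls, and in 1 gene the reverse. ALAS2, the first enzyme of erythroid heme synthesis, had 61.6 and 41.1 CPM in the control lines, 126 CPM at 50 nM and 12.2 CPM at 200 nM. PROX1, a homeobox transcription factor, had 0.298 and 0.251 CPM in the control lines, 8.39 CPM at 50 nM and 0.0928 CPM at 200 nM. SASH1, a signaling adaptor, had 11.1 and 14.3 CPM in the control lines, 2.05 CPM at 50 nM and 29.2 CPM at 200 nM. None of these 3 passed the test as a group difference, and they were named after their values were seen. Among held genes with large differences between the lines (as log2 ratios with 0.25 CPM added, which damps genes near 0) were G0S2, CCDC144NL, THBS1 and COBL. G0S2, an inhibitor of lipid breakdown, had 65.5 and 60.5 CPM in the control lines and 0.585 and 2.51 CPM at the late stage. CCDC144NL, which has similar copies that could share reads, had 61 and 48.1 CPM in the control lines and 1.66 and 5.57 CPM at the late stage. THBS1 is given above, and COBL, an actin nucleator, had 0.796 and 0.334 CPM in the control lines and 12.6 and 4.18 CPM at the late stage.

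Called genes of the ATF4 amino acid response were all lower in the late stage lines. Of 36 genes listed, 33 were tested, and 14 were called lower (42.4%), 9 of them held, against 0 called higher. Over all genes tested 4.56% were called lower, 2.14% held lower and 3.42% called higher. The median log2 fold change over the 33 was -1.21, against 0.00 over all genes tested, and 1 of the 33 was above 0. ATF5 (gene ID 22809, GRCh37 chromosome 19 from 50431959 to 50437192), a transcription factor of the same response, had 588 and 500.4 CPM in the control lines and 63.4 and 34.2 CPM at the late stage (log2 fold change -3.48, standard error 0.29, edgeR quasi-likelihood FDR 0.000674). ASNS (gene ID 440, GRCh37 chromosome 7 from 97480989 to 97501854), which makes asparagine, had 937 and 956 CPM in the control lines and 261 and 301 CPM at the late stage (log2 fold change -1.75, standard error 0.11, edgeR quasi-likelihood FDR 0.000317). In both genes the late stage lines lay far below the controls, without overlap. The count of 14 fell to 1 without the drug naive line, 5 without the DMSO line and 8 without the 50 nM line, with medians between -1.28 and -0.93.

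Folate and serine enzymes made up much of the rest. ALDH1L2, a mitochondrial folate dehydrogenase, had 293 and 243 CPM in the control lines and 47.3 and 63.5 CPM at the late stage (log2 fold change -2.27, standard error 0.19, edgeR quasi-likelihood FDR 0.000668). MTHFD2, an enzyme of the same mitochondrial pathway, had a log2 fold change of -1.76. CTH, the last enzyme of cysteine synthesis, had 137 and 131 CPM in the control lines and 25.5 and 39.2 CPM at the late stage (log2 fold change -2.05, standard error 0.20, edgeR quasi-likelihood FDR 0.00109). The secreted hormone STC2 had 69.3 and 70.7 CPM in the control lines and 13.2 and 17.8 CPM at the late stage (log2 fold change -2.17, standard error 0.20, edgeR quasi-likelihood FDR 0.000893). PHGDH, PSPH and SHMT2 of serine and glycine synthesis, PCK2, DDIT3 (CHOP), CEBPG, the amino acid transporter SLC1A4 and the tRNA exporter XPOT were the other called members. The mRNA of ATF4 itself was at 566 and 469 CPM in the control lines and 350.1 and 382 CPM at the late stage (log2 fold change -0.50, edgeR quasi-likelihood FDR 0.0169), and TRIB3 and SESN2, which did not pass, had log2 fold changes of -1.30 and -1.21. ATF4, TRIB3, SESN2, MTHFD2 and the other members listed without values lie outside the rule for named genes.

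Part of the ATF4 list also differed between the stages. Of the 33 tested members, 15 were higher in the late than in the early stage lines at an FDR of 0.05, and 0 were lower, where 6.6% of all genes tested were higher and 6.1% lower. The 14 called members had median log2 ratios to the controls of -2.19, -2.25 and -2.23 in the early stage lines, -1.80 in the 50 nM line and -1.59 in the 200 nM line. ASNS was at 187, 177 and 200.1 CPM in the 3 early stage lines, and its late minus early log2 fold change was 0.58 (standard error 0.10, edgeR quasi-likelihood FDR 0.0184). DDIT4, which was not called against the controls, was at 1077 and 946 CPM in the control lines, 121, 142 and 148 CPM at the early stage, and 198 and 512 CPM at the late stage.

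Cytosolic tRNA synthetases, which the same response controls, had 5 of 23 tested members called lower (21.7%) and 0 higher. Their median log2 fold change was -0.31. Over all tested genes 4.56% were called lower and 3.42% higher. WARS, the tryptophanyl-tRNA synthetase, had 1212 and 1237 CPM in the control lines and 429 and 456 CPM at the late stage (log2 fold change -1.47, standard error 0.17, edgeR quasi-likelihood FDR 0.0015) and was the only held member. AARS, SARS and IARS, for alanine, serine and isoleucine, had log2 fold changes of -0.86, -0.84 and -0.67, and YARS for tyrosine was the fifth member. Mitochondrial tRNA synthetases went the other way, with 3 of 17 called higher (17.6%) and 0 lower. The called members were MARS2, EARS2 and LARS2 (log2 fold changes 1.23, 0.99 and 0.90).

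Called genes of ER folding and degradation were also all lower. Of 32 tested, 11 were called lower (34.4%), 5 of them held, and 0 higher, with a median log2 fold change of -0.64 and 1 member above 0. Over all genes tested 4.56% were called lower, 2.14% held lower and 3.42% called higher. HSPA5 (gene ID 3309, GRCh37 chromosome 9 from 127997132 to 128003661), the main ER chaperone BiP, had 1874 and 1518 CPM in the control lines and 559.5 and 530.2 CPM at the late stage (log2 fold change -1.64, standard error 0.12, edgeR quasi-likelihood FDR 0.000551). ERN1, the IRE1 sensor, had 73.7 and 57.6 CPM in the control lines and 19.7 and 17.3 CPM at the late stage (log2 fold change -1.83, standard error 0.15, edgeR quasi-likelihood FDR 0.000742). SEL1L, which holds the ER degradation complex together, had 291 and 247 CPM in the control lines and 92.8 and 67.8 CPM at the late stage (log2 fold change -1.75, standard error 0.16, edgeR quasi-likelihood FDR 0.000893). The other called members were HYOU1, HERPUD1, EDEM1, EDEM2, DNAJB9, DNAJB11, MANF and PDIA3. Against the early stage lines 1 member was higher and 1 lower, where 6.6% of all genes tested were higher and 6.1% lower. The count of 11 fell to 1 without the drug naive line, 4 without the DMSO line, 6 without the 50 nM line and 5 without the 200 nM line or with the 4 control and late stage libraries alone, with medians between -0.74 and -0.54.

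Called chaperones of the cytosol and mitochondria were all higher. Of 28 tested, 13 were called higher (46.4%), 8 of them held, and 0 lower, with a median log2 fold change of 0.70 and 27 members above 0. Over all genes tested 3.42% were called higher, 1.16% held higher and 4.56% called lower. HSP90AA1 (gene ID 3320, GRCh37 chromosome 14 from 102547079 to 102606036), the inducible HSP90, had 873 and 959.9 CPM in the control lines and 2500 and 2630 CPM at the late stage (log2 fold change 1.49, standard error 0.12, edgeR quasi-likelihood FDR 0.000579). HSPA8, the constitutive HSP70, had 744 and 869 CPM in the control lines and 2067 and 1936 CPM at the late stage (log2 fold change 1.31, standard error 0.10, edgeR quasi-likelihood FDR 0.000553). HSPH1, an exchange factor for HSP70, had 53.8 and 68.9 CPM in the control lines and 235 and 220 CPM at the late stage (log2 fold change 1.89, standard error 0.15, edgeR quasi-likelihood FDR 0.000668). HSPE1, the partner of the mitochondrial chaperonin, had 50.2 and 59.4 CPM in the control lines and 158 and 188 CPM at the late stage (log2 fold change 1.66, standard error 0.13, edgeR quasi-likelihood FDR 0.000619). HSPA1A and HSPA1B, near-identical copies between which reads could be split, had log2 fold changes of 1.93 and 2.22. DNAJA1, DNAJB1, STIP1, AHSA1, CHORDC1, HSPA4 and HSP90AB1 were the other called members. The count of 13 fell to 0 without the drug naive line, 4 without the DMSO line and 7 without the 200 nM line, with medians between 0.63 and 0.82.

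Genes for ribosome assembly factors and RNA polymerase I subunits were also called only as higher. Of 104 tested, 31 were called higher (29.8%), 6 of them held, and 0 lower, and 95 had a log2 fold change above 0, with a median of 0.56. Over all genes tested 3.42% were called higher, 1.16% held higher and 4.56% called lower. UTP20 (gene ID 27340, GRCh37 chromosome 12 from 101673883 to 101780396), of the small subunit processome, had 36.3 and 42.5 CPM in the control lines and 132 and 113 CPM at the late stage (log2 fold change 1.63, standard error 0.13, edgeR quasi-likelihood FDR 0.000668). NOP16, RRS1 and UTP15, all of the nucleolus, had log2 fold changes of 1.57, 1.42 and 1.37, and were held in both lines. NCL, nucleolin, had 544 and 585 CPM in the control lines and 1011 and 1145 CPM at the late stage (log2 fold change 0.93, standard error 0.11, edgeR quasi-likelihood FDR 0.00168). By contrast, of 79 tested ribosomal proteins of the cytosol 1 was higher (RPS26, a gene with many processed copies that could take its reads) and 1 lower (RPL19), with a median of -0.04. The count for the assembly factors depended on the libraries in the fit: 3 members were called with the 4 control and late stage libraries alone and without the 50 or the 200 nM line, 0 without the drug naive line and 5 without the DMSO line, while the median stayed between 0.43 and 0.72.

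**Figure D3:**
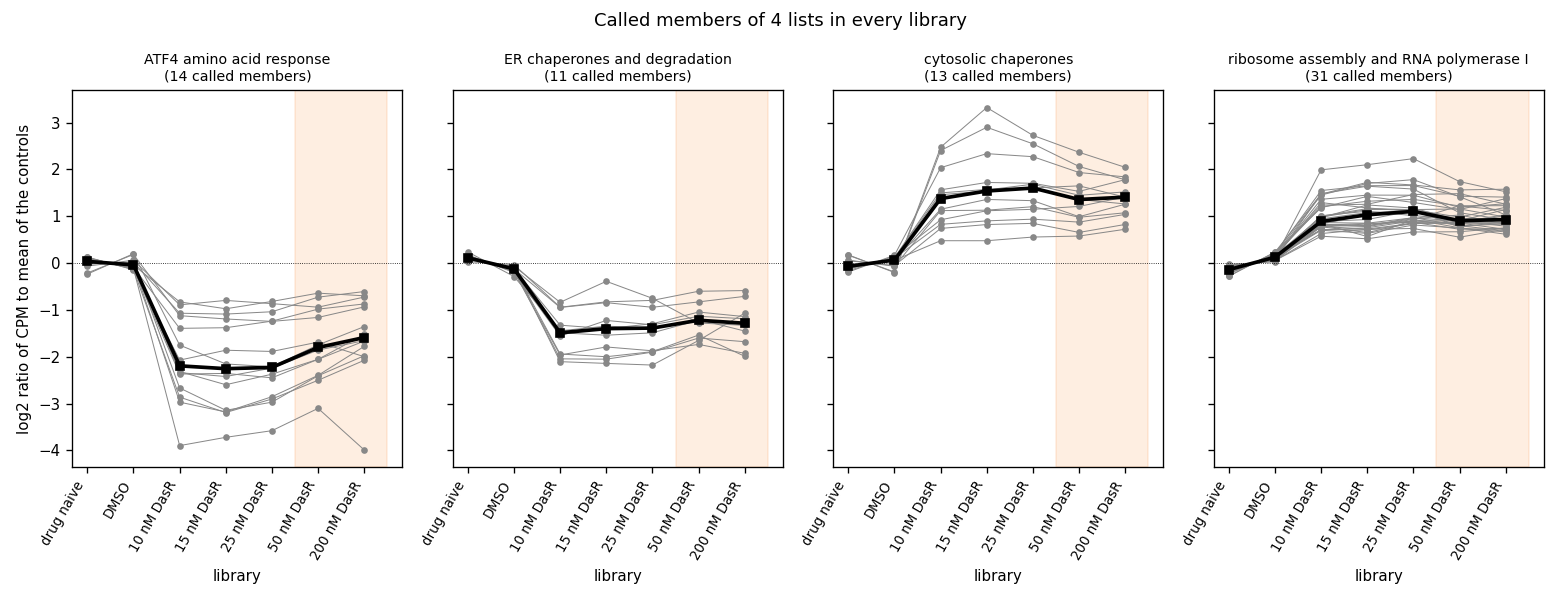
log2 ratio to the mean of the controls (y axis) in each of the 7 libraries (x axis) for the called members of 4 gene lists, 1 thin line per gene, with their median as a thick line and the late stage lines shaded. The members shown were chosen by the test, so the medians describe them and not the lists; those of the ATF4 list were at -1.80 and -1.59 in the 50 and 200 nM lines, and those of the cytosolic chaperones at 1.36 and 1.41.

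Promoters of 7 called genes are shown for 2 of the 7 short motifs searched, those read by ATF4 and by MYC. The sequences are RefSeq promoters of GRCh38.p14, the 200 bases before the annotated start, written 5′ to 3′ on the strand of the gene. RefSeq held a promoter for 8339 of the 10452 tested genes. The motif TGATGNAA, bound by dimers of ATF4 and C/EBP proteins, is in capitals in ASNS, AARS, IARS and HERPUD1 and stands as its reverse complement in AARS, IARS and HERPUD1. The motif CACGTG, the E-box read by MYC and related factors, is in capitals in DDX31, UTP20 and HSPE1, and also in IARS and HERPUD1, which were called lower.
ASNS, chr7:97872409-97872608, reverse strand: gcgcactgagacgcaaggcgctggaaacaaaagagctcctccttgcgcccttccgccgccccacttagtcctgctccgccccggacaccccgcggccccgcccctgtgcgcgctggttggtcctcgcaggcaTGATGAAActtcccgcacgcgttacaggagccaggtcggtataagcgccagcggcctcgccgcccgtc
AARS, chr16:70289507-70289706, reverse strand: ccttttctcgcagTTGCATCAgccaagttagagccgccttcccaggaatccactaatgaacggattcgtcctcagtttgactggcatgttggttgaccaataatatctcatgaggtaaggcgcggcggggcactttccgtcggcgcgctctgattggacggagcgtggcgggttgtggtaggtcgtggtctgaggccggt
IARS, chr9:92293698-92293897, reverse strand: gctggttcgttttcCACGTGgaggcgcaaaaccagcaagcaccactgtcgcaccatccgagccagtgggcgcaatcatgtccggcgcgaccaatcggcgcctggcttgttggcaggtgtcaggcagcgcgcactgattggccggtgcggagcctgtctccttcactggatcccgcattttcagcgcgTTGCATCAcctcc
HERPUD1, chr16:56931942-56932141, forward strand: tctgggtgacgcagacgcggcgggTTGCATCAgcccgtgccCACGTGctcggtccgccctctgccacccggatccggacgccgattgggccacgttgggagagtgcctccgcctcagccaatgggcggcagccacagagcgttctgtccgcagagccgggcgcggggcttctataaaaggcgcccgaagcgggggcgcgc
DDX31, chr9:132669984-132670183, reverse strand: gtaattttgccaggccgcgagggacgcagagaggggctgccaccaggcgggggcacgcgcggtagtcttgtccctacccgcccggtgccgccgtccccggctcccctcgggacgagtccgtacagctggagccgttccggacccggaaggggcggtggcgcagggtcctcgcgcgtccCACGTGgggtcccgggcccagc
UTP20, chr12:101279905-101280104, forward strand: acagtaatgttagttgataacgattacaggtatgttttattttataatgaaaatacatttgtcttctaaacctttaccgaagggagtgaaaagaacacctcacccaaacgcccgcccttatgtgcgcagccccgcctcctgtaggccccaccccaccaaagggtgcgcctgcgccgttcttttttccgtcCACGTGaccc
HSPE1, chr2:197500179-197500378, forward strand: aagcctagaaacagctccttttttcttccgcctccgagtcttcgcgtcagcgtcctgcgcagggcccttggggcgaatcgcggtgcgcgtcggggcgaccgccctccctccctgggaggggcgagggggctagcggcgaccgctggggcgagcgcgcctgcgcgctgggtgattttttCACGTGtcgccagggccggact

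TGATGNAA on either strand was in 3.97% of the 378 promoters of genes called lower and in 4.17% of the 168 of held lower genes, against 1.53% of all tested and 0.707% of those called higher. In the sequences above it begins 68 bases before the start in ASNS, 187 in AARS, 13 in IARS and 176 in HERPUD1. Of the called members of the ATF4 list with a promoter in the table, 1 of 11 held it in the window searched (250 bases before the start to 50 after), of the tRNA synthetases 2 of 4, and of the ER list 1 of 10. CACGTG was in 18% of the 283 promoters of genes called higher, 8.2% of those called lower and 10.9% of all tested, but in 11% of those held higher. It was in 10 of 28 promoters of called ribosome assembly genes, and in 1 of the 13 of called cytosolic chaperones. In DDX31, UTP20 and HSPE1 it begins 22, 10 and 22 bases before the start, and in IARS and HERPUD1 186 and 159. Of the other motifs, TGACTCA, read by AP-1, was in 4.76% of promoters of called lower genes and 6.55% of held lower ones, against 2.85% of all tested. The erythroid factor motif AGATAA was in 6.61% of those called lower, 2.47% of those called higher and 4.62% of all tested. TTCNNNGAA was in 6.61% of those called lower and 5.98% of all tested, TGACGTCA in 4.5% and 3.62%, and GGGCGG in 71.4% and 71.7%. The 2 printed motifs can overlap, since CACGTG ends with the TG that begins TGATGNAA. A match to these letters is a description of the sequence and not a binding site.

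Lists near the background were also measured. The share of called members was close to the 3.42% and 4.56% of all genes for the respiratory chain and ATP synthase (4 higher and 1 lower of 78), DNA repair (1 and 2 of 39), mitosis (0 and 2 of 36) and lysosome and autophagy genes (0 and 1 of 37). CYCS (cytochrome c) had 303 and 346 CPM in the control lines and 609.6 and 722 CPM at the late stage (log2 fold change 1.03, standard error 0.14, edgeR quasi-likelihood FDR 0.00279). Of the list as a whole, 65 of the 78 respiratory chain genes had a log2 fold change above 0, with a median of 0.27. Of cholesterol synthesis genes 0 of 25 were called by edgeR, with a median of 0.01 (7 at an unadjusted p under 0.05, 3 called by DESeq2 and 0 by limma-voom). Of HLA class I presentation genes 0 of 6 were called by edgeR (3 at an unadjusted p under 0.05, 1 called by DESeq2 and 0 by limma-voom). B2M, the light chain of class I molecules, had 371 and 368 CPM in the control lines and 242 and 244 CPM at the late stage (log2 fold change -0.60, edgeR quasi-likelihood FDR 0.00837).

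Of 48 tested genes of DNA replication 2 were called higher (4.17%) and 4 lower (8.33%), against 3.42% and 4.56% of all genes, with a median log2 fold change of 0.09. PCNA, the clamp of DNA replication, had 88.3 and 98.5 CPM in the control lines and 169 and 189.8 CPM at the late stage (log2 fold change 0.94, standard error 0.10, edgeR quasi-likelihood FDR 0.00141). CDT1, the licensing factor, had 231 and 204 CPM in the control lines and 111 and 128 CPM at the late stage (log2 fold change -0.86, standard error 0.12, edgeR quasi-likelihood FDR 0.00302). TOP2A, the topoisomerase of mitosis, had 934 and 857 CPM in the control lines and 529 and 485 CPM at the late stage (log2 fold change -0.82, standard error 0.12, edgeR quasi-likelihood FDR 0.00356). MYC itself was at 241 and 236 CPM in the control lines and 247 and 264 CPM at the late stage (log2 fold change 0.10, standard error 0.09, edgeR quasi-likelihood FDR 0.404), and of 32 genes of the MYC network 3 were called higher, HSPE1, NCL and PA2G4.

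**Figure D4:**
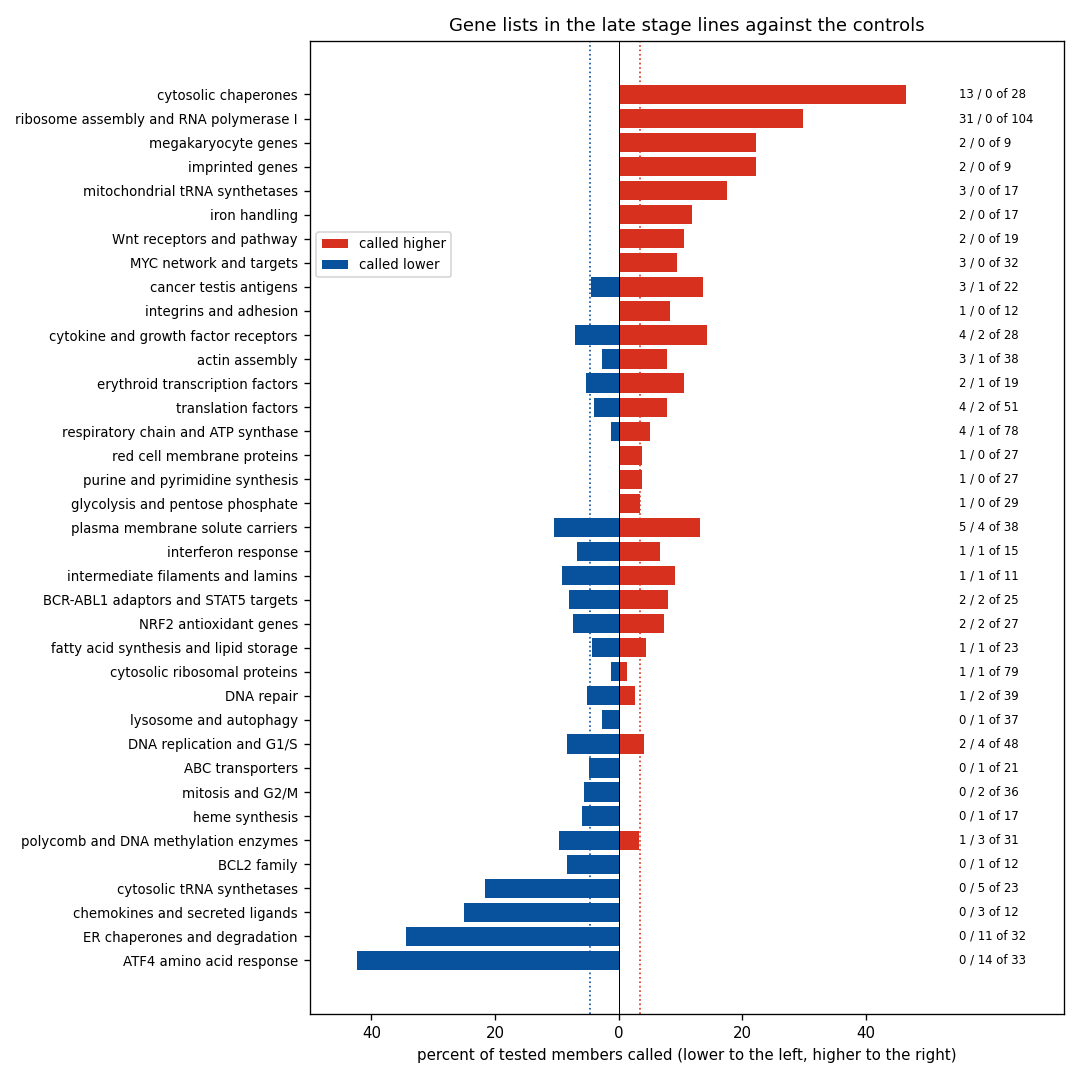
Percent of the tested members of 37 gene lists called higher (bars to the right) or lower (bars to the left) between late stage and control lines, with the share over all tested genes as dotted lines and the counts at the right as higher / lower of tested. Lists with at least 9 tested members and at least 1 call are drawn, without those of chromosome neighbours; ATF4 amino acid response and cytosolic chaperones have the longest bars.

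Erythroid genes did not move as one. Of 7 tested globin genes 0 were called by edgeR's quasi-likelihood test at 0.005, with a median log2 fold change of 0.59 (5 at an unadjusted p under 0.05, and 0 called by DESeq2 or limma-voom). HBZ, which lies outside the rule for named genes, the embryonic zeta globin, had 62.2 and 74.5 CPM in the control lines, 670 CPM at 50 nM and 60.2 CPM at 200 nM, so that the 50 nM line was above and the 200 nM line below them. HBG2 had 1263 and 918 CPM in the control lines and 1551 and 1208 CPM at the late stage (log2 fold change 0.34, FDR 0.318), and its near-identical copy HBG1 could share its reads. Of 17 iron genes 2 were called higher (11.8%, against 3.42% of all genes) and 0 lower (against 4.56%). The iron list as a whole had a median log2 fold change of -0.21, with 7 members above 0. TFRC, the transferrin receptor, had 621 and 486 CPM in the control lines and 1034 and 962 CPM at the late stage (log2 fold change 0.85, standard error 0.13, edgeR quasi-likelihood FDR 0.00373). The other called iron gene was STEAP3, the endosomal iron reductase, which went from 22.2 and 32.9 to 61.5 and 63.7 CPM. Of 19 erythroid transcription factors, the GATA1 cofactors ZFPM1 (1.51 on the log2 scale) and LMO2 (1.33) were higher and RUNX1 (-0.77) was lower. ABCB10, which carries heme precursors across the mitochondrial membrane, was the 1 called gene of 17 for heme synthesis, with 288 and 282 CPM in the control lines and 188 and 163 CPM at the late stage (log2 fold change -0.70, standard error 0.11, edgeR quasi-likelihood FDR 0.00457).

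Markers of other cell types were mostly untested for low counts. Of 27 megakaryocyte genes 9 were tested and 2 were called higher (22.2%, against 3.42% of all genes), THBS1 and F2R. F2R, the thrombin receptor, had 41.2 and 36.6 CPM in the control lines and 124 and 112 CPM at the late stage (log2 fold change 1.60, standard error 0.16, edgeR quasi-likelihood FDR 0.000991). The summed level of the megakaryocyte list was 895 and 790 CPM in the control lines and 916 and 961 CPM at the late stage, MYH9, which was not called, having the most CPM. The 9 tested members had a median log2 fold change of 1.21, with 7 above 0. Of 22 myeloid genes 3 were tested and 0 called by edgeR (1 at an unadjusted p under 0.05, 0 called by DESeq2 or limma-voom), and LYZ, their most abundant, had 57.2 and 40.1 CPM in the control lines and 94.7 and 99.1 CPM at the late stage. Of 20 lymphoid genes 1 was tested, CD3D, which had 17 and 8.19 CPM in the control lines and 23 and 29.7 CPM at the late stage and was not called by edgeR, DESeq2 or limma-voom (edgeR FDR 0.165). Of 18 fibroblast and endothelial genes 3 were tested and 1, VIM, was called lower (33.3%, against 4.56% of all genes). Summed over the lists in the drug naive, DMSO, 50 and 200 nM lines, myeloid genes had 202, 178, 197 and 195 CPM, lymphoid genes 29.4, 21.9, 38.6 and 39.5 CPM, and fibroblast and endothelial genes 1517, 1048, 326 and 331 CPM, most of it VIM. The members with 0 counts in all 4 lines numbered 2 for megakaryocytes, 1 for myeloid, 1 for lymphoid and 2 for fibroblast and endothelial genes. Whether other cells had a part in any result was not tested beyond these markers.

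Signaling downstream of the kinase changed in single genes. Of 25 tested adaptors and STAT5 targets, BCR and DOK2 were higher (8%) and GAB2 and STAT5B lower (8%). Over all genes the shares were 3.42% higher and 4.56% lower. DOK2, a docking protein that restrains RAS signaling, had 5.37 and 4.76 CPM in the control lines and 33.5 and 39.7 CPM at the late stage (log2 fold change 2.85, standard error 0.27, edgeR quasi-likelihood FDR 0.000893). STAT5B had 397 and 449 CPM in the control lines and 208 and 234 CPM at the late stage (log2 fold change -0.93, standard error 0.10, edgeR quasi-likelihood FDR 0.00141). Of 13 SRC family kinases and regulators 0 were called by edgeR (3 at an unadjusted p under 0.05, 1 called by DESeq2 and 0 by limma-voom). Of 21 genes of ERK feedback 0 were called by edgeR (10 at an unadjusted p under 0.05, 4 called by DESeq2 and 0 by limma-voom). Of 6 receptors and kinases that dasatinib binds 1 was called, ABL1. For the SRC family list 2 of the 13 tested members were higher in the late than in the early stage lines, and 0 were lower. Of all genes tested, 6.6% were higher and 6.1% lower between the stages. YES1, for instance, was at 322 and 339 CPM in the control lines, 204, 156 and 211 CPM at the early stage and 358 and 433 CPM at the late stage (late minus early 1.05, edgeR quasi-likelihood FDR 0.0167).

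ABL1 and BCR, the parts of the fusion, were above the controls in both lines, and lower at 200 nM. ABL1 (gene ID 25, GRCh37 chromosome 9 from 133588430 to 133763062) had 365 and 321 CPM in the control lines and 1412 and 920.1 CPM at the late stage (log2 fold change 1.77, standard error 0.25, edgeR quasi-likelihood FDR 0.0032). BCR (gene ID 613, GRCh37 chromosome 22 from 23521891 to 23660224) had 204 and 180.3 CPM in the control lines and 769 and 464 CPM at the late stage (log2 fold change 1.68, standard error 0.27, edgeR quasi-likelihood FDR 0.00455). In the early stage lines ABL1 was at 2605, 2037 and 1708 CPM and BCR at 1404, 1105 and 946 CPM, above the late stage lines, but the late minus early log2 fold changes of -0.86 and -0.90 had edgeR quasi-likelihood FDRs of 0.0507 and 0.052. Reads from the fusion and from the normal alleles are counted together. ABCG2, the drug efflux pump, was at 3.73 and 0.585 CPM in the control lines, 202 CPM at 50 nM and 2.41 CPM at 200 nM, so that the late stage lines did not hold a common level (log2 fold change 5.61, standard error 1.96, edgeR quasi-likelihood FDR 0.0623). The reference gene GUSB had 107 and 102 CPM in the control lines and 92.8 and 95.2 CPM at the late stage (log2 fold change -0.15, standard error 0.09, edgeR quasi-likelihood FDR 0.249).

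Of 12 tested chemokines and secreted ligands 3 were called lower (25%) and 0 higher, against 4.56% and 3.42% of all genes. The list as a whole nevertheless had a median log2 fold change of 0.49, with 8 members above 0. VEGFA, the vascular growth factor, had 861 and 551 CPM in the control lines and 207 and 252 CPM at the late stage (log2 fold change -1.62, standard error 0.26, edgeR quasi-likelihood FDR 0.00498). EREG, a ligand of the EGF receptor, had 12.3 and 18.2 CPM in the control lines and 1.51 and 2.60 CPM at the late stage (log2 fold change -2.89, standard error 0.38, edgeR quasi-likelihood FDR 0.00249). GDF15, a cytokine of cell stress, had 122 and 112 CPM in the control lines and 63.3 and 48.8 CPM at the late stage (log2 fold change -1.06, standard error 0.17, edgeR quasi-likelihood FDR 0.00447). All 3 had lower values in each late stage line than in either control, and VEGFA and EREG were higher than at the early stage (edgeR quasi-likelihood FDRs 0.0239 and 0.023). Among receptors, 4 of 28 were higher (14.3%), with IL4R (1.53) and FGFR3 (1.33) the largest. The 2 lower receptors (7.14%) were IL20RB and the death receptor TNFRSF10B (-1.54).

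Other lists had calls both ways. Of 38 solute carriers of the plasma membrane 5 were higher (13.2%) and 4 lower (10.5%), against 3.42% and 4.56% of all genes. SLC12A7, a potassium-chloride cotransporter, had 17.2 and 8.14 CPM in the control lines and 109 and 63.5 CPM at the late stage (log2 fold change 2.77, standard error 0.37, edgeR quasi-likelihood FDR 0.00263). SLC5A6, a vitamin transporter, had 45.2 and 72.5 CPM in the control lines and 160.1 and 170.1 CPM at the late stage (log2 fold change 1.49, standard error 0.20, edgeR quasi-likelihood FDR 0.00285). SLC6A9, which imports glycine, had 88.8 and 80.3 CPM in the control lines and 43.4 and 32 CPM at the late stage (log2 fold change -1.17, standard error 0.16, edgeR quasi-likelihood FDR 0.00293). Among antioxidant genes of the NRF2 pathway, SRXN1 was higher (0.79), and AKR1C1 and AKR1C2, similar copies that could share reads, were lower. The actin bundler FSCN1 rose (1.15) and the tropomyosin TPM1 fell (-1.70). MCAM, an adhesion molecule, had 48.6 and 48.7 CPM in the control lines and 127 and 115 CPM at the late stage (log2 fold change 1.31, standard error 0.13, edgeR quasi-likelihood FDR 0.00121). Of cancer testis antigens, CTAG2, MAGEA2 and MAGEA6 were higher and MAGEB2 lower, and all but MAGEB2 have near-identical copies, which makes their counts uncertain. MAGEB2 had 48.9 and 56 CPM in the control lines and 4.83 and 5.62 CPM at the late stage (log2 fold change -3.33, standard error 0.50, edgeR quasi-likelihood FDR 0.00387), against 26.9, 84.7 and 51 CPM at the early stage.

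A small set of calls did not depend on any 1 library. Of the 834 genes, 29 passed in each of the 7 fits that left out 1 library, 15 of them higher and 14 lower. The higher ones were ABRACL, ADCY6, AQP3, ARHGEF10, CTDSPL, ENAH, FASTKD5, FZD3, GPR125, KIAA1549, KLF8, PARD3, TBX1, TLX1 and WNK2. The lower ones were AAK1, AKNA, ASNS, CCPG1, FAR2P1, GAB2, GFPT1, HSPA5, LOC440910, OGT, PABPC1L, VAT1, VIM and ZBED9. Among them GFPT1, the first enzyme of the hexosamine pathway, was at 641 and 551 CPM in the control lines and 154 and 129 CPM at the late stage (log2 fold change -2.07, standard error 0.14, edgeR quasi-likelihood FDR 0.000393). OGT, which transfers the product of that pathway onto proteins, was at 984 and 1004 CPM in the control lines and 444 and 441 CPM at the late stage (log2 fold change -1.17, standard error 0.08, edgeR quasi-likelihood FDR 0.000442). WNK2, a kinase that regulates ion transport, had 2.98 and 2.50 CPM in the control lines and 34.8 and 41.9 CPM at the late stage (log2 fold change 3.81, standard error 0.21, edgeR quasi-likelihood FDR 0.000225). GFPT1, OGT and WNK2 lie outside the rule for named genes.

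The late stage lines were then set against the early stage lines in the same fit. At an FDR of 0.05, 1328 genes (12.7%) differed by edgeR's quasi-likelihood test, with 690 (6.6%) higher and 638 (6.1%) lower at the late stage. Of the 121 genes held higher against the controls, 25 were also above the early stage lines, 13 below them, and 83 did not pass either way. Of the 224 held lower, 27 were above, 32 below, and 165 did not pass. The count was 2041 without the 50 nM line and 0 without the 200 nM line, 466 without the 15 nM line and 456 without the 25 nM line.

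Genes that were called against the controls and had the smallest p-values between the stages are given next. STOM, stomatin of the red cell membrane, was at 48.1 and 47.1 CPM in the control lines, 37.5, 32.3 and 57.5 CPM at the early stage and 148 and 160.5 CPM at the late stage, and the stages did not overlap (late minus early 1.86, standard error 0.22, edgeR quasi-likelihood FDR 0.0167). PHLDA2, an imprinted regulator of growth, was at 6.82 and 5.89 CPM in the control lines, 5.42, 4.85 and 7.93 CPM at the early stage and 20.4 and 23.8 CPM at the late stage (late minus early 1.87, edgeR quasi-likelihood FDR 0.0167). In both genes the early stage lines were at or near the level of the controls. DLGAP1-AS2 and KIAA1324L were lower than the controls in all DasR lines and less so in the late stage, with 15.3 and 19.1 and 62.2 and 66.4 CPM in the 50 and 200 nM lines against 5.97, 4.52 and 6.52 and 23.6, 27.9 and 31.6 CPM at the early stage. Of the 6 genes lower than in the early stage, ASXL1, GNAS, ADNP, CPNE1 and POFUT1 all lie on chromosome 20, and ZNF33B lies on chromosome 10. ASXL1, a chromatin regulator that is often mutated in myeloid disease, was at 179 and 186 CPM in the control lines, 167, 184 and 165 CPM at the early stage and 99.3 and 89.3 CPM at the late stage.

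Calls were then described by position, because chromosomes 15 and 20 stood apart. On chromosome 15, 52 of 331 tested genes were called lower (15.7%) and 2 higher (0.604%), and 296 of the 331 had a log2 fold change below 0. The median log2 ratio to the controls over its genes was -0.48 in the 50 nM line and -0.60 in the 200 nM line, against -0.32, 0.03 and -0.10 by rising dose at the early stage. Between the stages, 86 of the 331 were lower in the late stage lines and 5 higher at an FDR of 0.05. NEO1, a receptor of the netrin family on this chromosome, was at 17.1 and 26.4 CPM in the control lines, 3.99, 3.62 and 2.07 CPM at the early stage and 0.585 and 0.743 CPM at the late stage (log2 fold change -5.02, standard error 0.44, edgeR quasi-likelihood FDR 0.000833), and was chosen after its values were seen.

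On chromosome 20, 20 of 272 tested genes were called higher (7.35%) and 30 lower (11%), and the directions lay apart along the chromosome. From C20orf96 to MGME1 (GRCh37 chromosome 20 from 251504 to 17971765), 19 of 63 tested genes were higher and 2 lower, with medians of 0.43 at 50 nM and 0.48 at 200 nM, and of 0.65, 0.71 and 0.64 in the early stage lines. From ACSS1 to SPATA2 (from 24986866 to 48532066), 0 of 122 were higher and 19 lower, with medians of -0.45 and -0.47, and from SNAI1 to PCMTD2 (from 48599517 to 62936173) 0 of 69 were higher and 9 lower, with medians of -0.38 and -0.40. In these last runs the early stage medians were between -0.15 and 0.17, and 94 genes of the chromosome (34.6%) were lower than in the early stage lines against 4 higher.

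**Figure D5:**
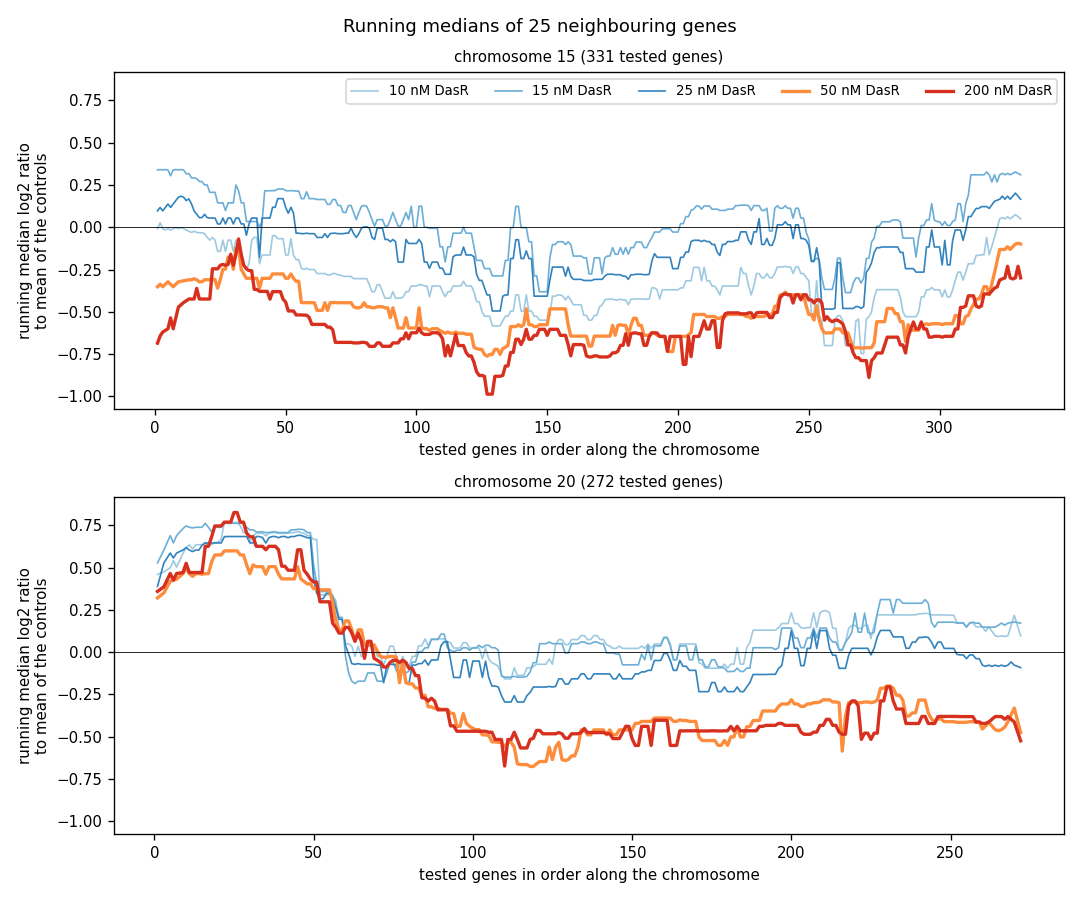
Running median over 25 neighbouring tested genes of the log2 ratio to the mean of the controls (y axis), along chromosomes 15 and 20 by order of gene (x axis), 1 line per DasR library. Along chromosome 15 and the second part of chromosome 20 the 50 and 200 nM lines run below the early stage lines, and at the beginning of chromosome 20 all 5 lines run above 0.

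A run was defined, after these medians were seen, as neighbouring genes in windows of 25 in which both late stage lines had a median beyond 0.35 in the same direction. There were 15 runs, 10 lower and 5 higher, with 1183 of the 10152 placed genes. They held 154 of the 459 placed genes called lower and 46 of the 356 called higher, and outside them 3.4% of genes were called lower and 3.46% higher. Besides chromosomes 15 and 20, the longest were from SHMT1 to HDAC5 on chromosome 17 (175 genes, 30 lower, medians -0.46 and -0.43) and from PELI1 to FAHD2A on chromosome 2 (101 genes, 18 lower, medians -0.45 and -0.53), where the early stage lines had medians between -0.55 and -0.47. The run on chromosome 17 holds STAT5B, BRCA1 and TOP2A, and copies of CCDC144 that cannot be separated with certainty. Of the called members of the ATF4 list 2 of 14 lie in a run (MTHFD2 and SLC1A4), of the ER list 3 of 11, of the cytosolic chaperones 1 of 13 and of ribosome assembly 3 of 31. What underlies the runs was not tested.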

How the data were processed

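RNA libraries of 7 K562 lines were made with a directional kit; the labels give polyA RNA, and the study's methods name depletion of ribosomal RNA. Per the labels and the study's methods, STAR alignment (hg19) and featureCounts were used by the authors, who deposited raw counts per gene; tool versions and the use of strand in counting are not given in the sources used here. The deposited tables of differential expression hold the results of the authors' comparisons (fold change, average log2 CPM, significance), which were not used; gene length and symbol were read from one. Library totals were between 20059656 and 27844799 counts, and 3 counts correspond to between 0.108 and 0.150 CPM by these totals (counting error only).

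Symbols were found in RefSeq for 23696 of 25702 gene IDs, and 22845 were placed on GRCh37. Genes reaching 10 CPM by library total, before TMM scaling, in 2 or more libraries were tested. They entered a fit with edgeR 4.0.16 in R 4.3.3 (TMM scaling, quasi-likelihood test, all 7 libraries in 3 groups, 4 residual degrees of freedom, biological coefficient of variation 0.161). Thresholds were an FDR of 0.005 against controls and 0.05 between stages. In simulated counts over 10164 genes with the late stage against control design, the test called 56 of 100 genes changed by 1 log2 unit, 99 of 100 changed by 2 and 1 unchanged gene. Every simulated gene had the same coefficient of variation, 0.161, and the same change in both late stage lines. In the real counts the spread differs by gene and dose, so these shares need not hold there.

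The members, gene lists and tests were chosen with earlier results of these data known. Genes were named by rule: the 12 held genes each way of largest fold change with at least 10 CPM in every library of the higher group, the 5 each way of smallest p and the 5 of largest CPM difference, up to 4 called members per list (or its most abundant member), the 6 each way of smallest p between stages, the 4 held genes each way that differed most between lines, and ABCG2, BCR, ABL1, MYC and GUSB. One gene that the rule names is not reported here. Alternatives were DESeq2 1.42.0, limma-voom 3.58.1, other scalings, filters and thresholds, a fit of 4 libraries, and leaving out each library.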

Additional observations from a re-analysis of the deposited data

Results flagged for a closer look

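In 11 of the genes called against the controls, the late and early stage lines differed by the test of that difference in edgeR's quasi-likelihood fit, each with an FDR of 0.0167. Log2 fold changes, late minus early, were 1.86 for STOM, 1.61 for DLGAP1-AS2, 1.22 for KIAA1324L, 0.96 for CREB3 and 0.84 for PROSER2-AS1. They were -1.30 for CPNE1, -1.004 for ZNF33B, -0.87 for ASXL1, -0.82 for GNAS, -0.79 for POFUT1 and -0.75 for ADNP. DLGAP1-AS2 and PROSER2-AS1 are antisense genes, whose reads could come from the other strand.

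The late stage lines lay on opposite sides of both controls by at least 2-fold in 7 genes. In 6 of them the 50 nM line was higher and the 200 nM line lower (ALAS2, EMILIN2, PROX1, TMPRSS11F, TNS3 and 1 gene without a symbol), and in 1, SASH1, the reverse. With 1 library per line the difference was not tested.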

How the results depend on the processing

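No paired analysis was possible because the labels carry no replicate numbers and each line is 1 library. The number of genes called against the controls was 834 in the fit reported. In its place DESeq2's Wald test gave 2503, an FDR of 0.05 gave 3542, a fit of control and late stage libraries only 335, and no filter on low counts 1287. Leaving out 1 library gave between 30 (drug naive) and 601 (15 nM), with 95 without DMSO and 276, 301 and 292 without the 25, 50 and 200 nM lines. The number of held genes, 345, became 112 at 4-fold, 522 at an FDR of 0.05 and 647 with no filter, and between 30 (without drug naive) and 337 (without 15 nM), with 95 without DMSO and 223 without 25 nM. The number of calls between stages, 1328, became 2193 with DESeq2 and 0 at an FDR of 0.005 by edgeR (3450 at an unadjusted p under 0.05; at 0.005 DESeq2 gave 1135 and limma-voom 0), and between 0 (without 200 nM) and 2041 (without 50 nM), with 466 and 456 without 15 and 25 nM. limma-voom (788), RLE scaling (828), library totals (791) and a 1 CPM filter (827) stayed within 1.5 times the 834. No result changed direction under any alternative run. For called genes in the fits that leave out 1 library, this was fixed by lines that do not overlap. The cause of these shifts was not tested, apart from fewer libraries in the fits that leave some out. With 1 library per line, neither culture variation nor clonal composition was measured.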
